A study of Mus musculus with 6 samples.

Results

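The small leucine-rich proteoglycans are 10 of the 17854 genes in the expression table, namely *Dcn*, *Bgn*, *Lum*, *Fmod*, *Kera*, *Omd*, *Prelp*, *Ogn*, *Epyc* and *Chad*. They were chosen by gene symbol as members of the family, with earlier results of these data known, and all 10 were found in the table and passed the filter on low counts. RNA sequencing of sorted Tomato+ cells gave 3 libraries of MSC-derived cells and 3 libraries of endogenous cells. Whether each library came from a separate mouse is not stated, so n counts libraries. Both groups were digested from knee articular cartilage of male mice on the C57BL/6 background, and both are labelled chondrocytes. In both, Cre driven by *Prrx1* regulatory sequence had switched on the red protein tdTomato from the R26tdTomato allele. The MSC-derived cells came from hosts with knee osteoarthritis, set off by cutting the anterior cruciate ligament at 8 weeks of age, which later received an injection of sorted Tomato+ mesenchymal stromal cells from inguinal white fat of Prrx1-Cre; R26tdTomato mice into the joint. The endogenous cells came from Prrx1-Cre; R26tdTomato mice of matched age and sex for which no surgery or injection is described. The label follows every descendant of *Prrx1*-expressing limb mesenchyme, bone-forming and adipose stromal cells included, so it does not mark chondrocytes alone. Surgery, injection, host and cell origin differ together between the groups, so their parts cannot be told apart.

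Proteins of this family are secreted into connective tissue, where a curved stack of leucine-rich repeats binds collagen fibrils and limits or guides their growth. Class I members (decorin and biglycan) carry chondroitin or dermatan sulfate chains, most class II members carry keratan sulfate or sulfated tyrosines, class III holds epiphycan and osteoglycin, and chondroadherin of class IV carries no such chain. In cartilage these proteins sit on fibrils of type II collagen and in the matrix around the cells, and released decorin and biglycan can bind growth factors and innate immune receptors.

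Promoters are shown for *Chad*, *Bgn* and *Fmod*, the most abundant member of the endogenous cells and the class I and class II members that fell furthest within their class. These are the 250 bases before the RefSeq gene start in GRCm38.p6, on the plus strand and read 5′ to 3′. Capitals mark a TATA box (TATAAA) and a GC box (GGGCGG) in *Chad*, GC boxes read from the other strand (CCGCCC) in *Bgn*, of which the last 2 share bases, and a SOX core (ACAANG) in *Fmod*.
Chad chr11:94564797-94565046: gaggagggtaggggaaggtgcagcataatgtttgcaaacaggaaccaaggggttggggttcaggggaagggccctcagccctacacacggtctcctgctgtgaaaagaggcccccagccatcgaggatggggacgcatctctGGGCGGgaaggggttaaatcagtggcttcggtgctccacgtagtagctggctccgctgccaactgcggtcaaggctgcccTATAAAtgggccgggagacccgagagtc
Bgn chrX:73483351-73483600: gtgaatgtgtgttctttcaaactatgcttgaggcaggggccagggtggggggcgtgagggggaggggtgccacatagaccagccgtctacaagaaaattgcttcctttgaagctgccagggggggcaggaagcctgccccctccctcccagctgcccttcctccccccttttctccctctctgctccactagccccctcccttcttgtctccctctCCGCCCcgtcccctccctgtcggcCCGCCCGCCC
Fmod chr1:134037004-134037253: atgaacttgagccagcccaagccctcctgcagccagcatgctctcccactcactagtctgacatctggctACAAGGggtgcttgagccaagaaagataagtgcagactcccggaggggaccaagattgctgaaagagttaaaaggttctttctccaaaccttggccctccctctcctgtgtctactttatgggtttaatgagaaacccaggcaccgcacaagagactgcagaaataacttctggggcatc
The *Chad* window held its TATA box 28 bases and its GC box 108 bases upstream of the start. In *Bgn* the GC boxes began 34, 10 and 6 bases upstream, and in *Fmod* the SOX core began 180 bases upstream. GC content was 60.4% for *Chad*, 64.4% for *Bgn* and 51.2% for *Fmod*. In the windows not shown it was 55.6% for *Prelp*, 42.4% for *Kera*, 42% for *Ogn* and 38.4% for *Omd*. The start sites of *Epyc* had 31.2% and 39.2%. RefSeq windows were found for 8 members, in 9 windows. Of these, 2 held TATAAA, 2 held GGGCGG, 5 held ACAANG and 1 held TGTGGT (a RUNX core) on either strand, where 12.4%, 32.7%, 36.3% and 14% of all 32851 windows of this length did. A match is a run of letters and was not tested for binding.

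The libraries differed widely in their cell type markers. The summed level of 13 chondrocyte markers was 482 to 500 TPM (a share of all transcripts in a library, corrected for transcript length) in the MSC-derived libraries and 28240 to 28760 TPM in the endogenous ones, and all 13 were lower in MSC-derived cells. The 12 common mesenchymal markers summed to 1396 to 1432 TPM against 45780 to 54290 TPM, and all 12 were lower. Osteoblast and osteocyte markers summed to 231.5 to 247.5 TPM against 29760 to 49200 TPM. In the endogenous libraries this sum exceeded that of the chondrocyte markers, but most of it was *Bglap* alone (22812, 43655 and 39572 TPM). Of the 7 tested, 6 were lower too. By contrast, 12 of 12 macrophage markers were higher (13970 to 14290 TPM against 60.8 to 76.3 TPM), as were 10 of 10 neutrophil markers (150200 to 158800 TPM against 8370 to 11820 TPM), 9 of 9 erythroid markers (79170 to 81480 TPM against 18200 to 24590 TPM) and 10 of 10 common leukocyte markers (5406 to 5409 TPM against 464 to 521 TPM). The chondrocyte markers were thus present but low in the libraries labelled MSC-derived chondrocytes, and none of them was at 0 throughout a group. The part of these cell types in the results below was not tested, and in bulk RNA fewer cells of a type and less RNA per cell cannot be told apart. Endogenous replicate 1 stood apart from the other two, with 3459 genes at 0 against 1338 and 1395. Totals were 22060628 to 24881796 expected counts per library, so that a floor of 3 counts lay at 0.121 to 0.136 CPM (counts scaled to library size), by counting error only.

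Nearly the whole family was lower in the MSC-derived cells. Of the 10 members, 9 were lower, 0 were higher (0 also by DESeq2, and all 10 estimates were negative) and only *Kera* did not pass the test, judged by edgeR's quasi-likelihood test with a threshold of 0.05 on p-values adjusted over all 14289 genes tested. Among all genes tested, 30.3% were lower and 31.3% were higher. The median log2 fold change of the members was -3.62, where the median of all genes tested was 0.05. Levels did not overlap between the groups for any of the 10 members, all with the MSC-derived libraries below. Such a gap occurred for 72.4% of all genes tested, for 34.1% with MSC-derived cells lower and for 38.2% with them higher. Together the members took up 0.254%, 0.254% and 0.25% of all TPM in the MSC-derived libraries and 3.88%, 3.34% and 3.44% in the endogenous libraries. Fold changes below come from counts scaled with edgeR's TMM factors, and CPM values are on that scale.

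**Figure D1:**
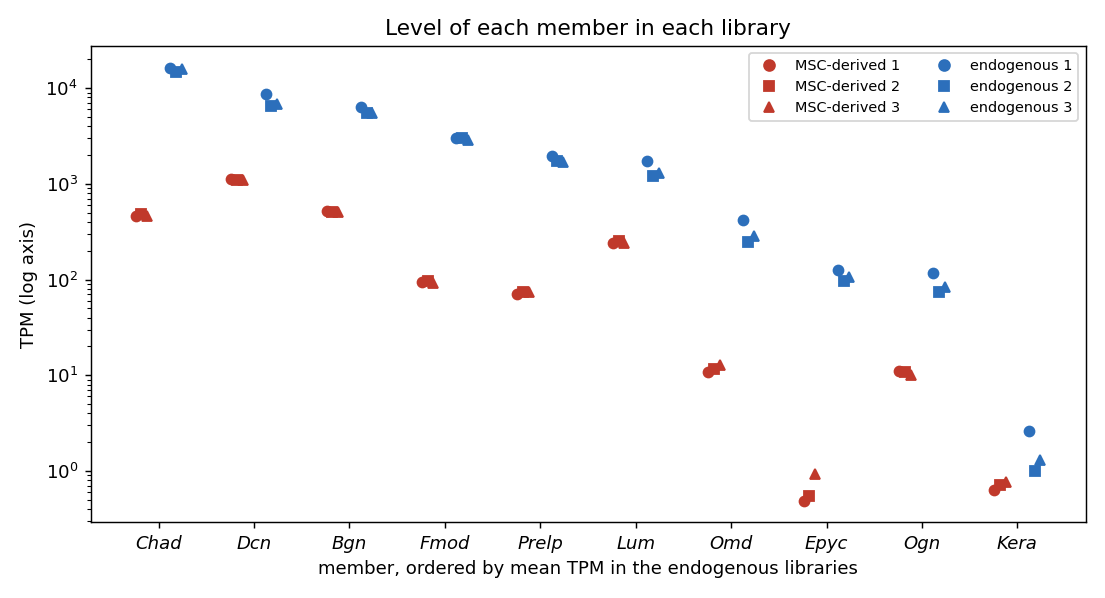
Level of each member (TPM, log axis) in each of the 6 libraries, with MSC-derived libraries in red and endogenous libraries in blue, and the marker shape giving the replicate. *Chad* is the highest member in the endogenous libraries (14895 to 16420.4 TPM), *Dcn* is the highest in the MSC-derived libraries (1094 to 1125 TPM), and the groups come closest at *Kera*.

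Decorin and biglycan, the class I members, bind type I and type II collagen and hold growth factors of the TGF-β family. *Dcn* (gene ID 13179) stood at 1472, 1449 and 1450.5 CPM in the MSC-derived libraries and at 7698, 6687 and 6842.5 CPM in the endogenous libraries. It was thus one of the most abundant transcripts on both sides, ranking 99 to 102 by TPM in the MSC-derived cells and 9 to 13 in the endogenous cells. Its log2 fold change was -2.28 (SE 0.07, adjusted p = 2.13e-07), which left 20.6% of the endogenous level. *Bgn* (gene ID 12111) stood at 903, 872 and 890.02 CPM in the MSC-derived libraries and at 7373, 7439.5 and 7349 CPM in the endogenous libraries. In CPM both groups were tight, and the endogenous libraries varied by 0.633% (coefficient of variation). In TPM the endogenous libraries spread more, at 5766 ± 450.2 (SD, n = 3). The log2 fold change of *Bgn* was -3.06 (SE 0.05, adjusted p = 3.39e-08), which left 12% of the endogenous level. The 95% intervals, -2.44 to -2.12 for *Dcn* and -3.18 to -2.94 for *Bgn*, did not overlap.

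Class II was split. Lumican and fibromodulin share a binding region on collagen and follow each other during fibril growth, and *Lum* (gene ID 17022) fell less than *Fmod* (gene ID 14264). *Lum* had 354, 369 and 355 CPM in the MSC-derived libraries and 1699.6, 1365 and 1459 CPM in the endogenous libraries, where replicate 1 was the highest. This was a log2 fold change of -2.07 (SE 0.09, adjusted p = 1.13e-06), or 23.8% of the endogenous level, the smallest among the 9 called members. *Fmod* had 216, 222 and 214 CPM in the MSC-derived libraries and 4688, 5362 and 5068 CPM in the endogenous libraries. Here replicate 1 was the lowest of the endogenous libraries in CPM, and the log2 fold change was -4.54 (SE 0.08, adjusted p = 3.39e-08), a 23.2-fold difference.

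*Prelp* (gene ID 116847) encodes a protein with a basic, proline- and arginine-rich end that binds heparan sulfate. It had 188, 195 and 198 CPM in the MSC-derived libraries and 3538, 3578 and 3452.5 CPM in the endogenous libraries. The libraries of each group lay close together in CPM, and the log2 fold change was -4.19 (SE 0.06, adjusted p = 2.3e-08), an 18.2-fold difference. *Omd* (gene ID 27047) encodes osteomodulin, an acidic protein of mineralized matrix, and fell beside the osteoblast markers, whose part was not tested. Its levels were 15.2, 16.1 and 18.2 CPM against 371, 254 and 288 CPM, with endogenous replicate 1 the highest. The log2 fold change was -4.21 (SE 0.17, adjusted p = 7e-07), close in size to that of *Prelp* but with a wider 95% interval (-4.60 to -3.81 against -4.33 to -4.05). *Omd* was the only member with counts that were not whole, as RSEM gives where reads fit more than 1 gene.

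*Kera* (gene ID 16545) encodes keratocan, a keratan sulfate proteoglycan best known from the cornea, and was nearly absent in both groups. The MSC-derived libraries held 22, 24 and 24 counts and the endogenous libraries 55, 24 and 33 counts. On the CPM scale the groups were set apart only narrowly, by 1.05 in the highest MSC-derived library and 1.06 in the lowest endogenous library. The log2 fold change was -0.75 (SE 0.50, 95% interval -1.92 to 0.43, adjusted p = 0.23), so the interval held both a clear decrease and a small increase. Without endogenous replicate 1 the log2 fold change was -0.40 (adjusted p = 0.434).

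Epiphycan and osteoglycin form class III. *Epyc* (gene ID 13516), a dermatan sulfate proteoglycan of growth plate cartilage, had 15, 16 and 26 counts in the MSC-derived libraries and 2310, 2009 and 2347 counts in the endogenous libraries. The MSC-derived libraries were thus above the floor of 3 counts, but at only 0.586, 0.656 and 1.14 CPM, against 102, 88.8 and 98.2 CPM. *Epyc* had the largest change in the family, with a log2 fold change of -6.93 (SE 0.22, adjusted p = 2.54e-07), which left 0.822% of the endogenous level. Its size rested on few counts, and it ran from -7.26 without MSC-derived replicate 3 to -6.74 without MSC-derived replicate 1, and was -5.31 with limma on log2(FPKM + 1). *Ogn* (gene ID 18295), which encodes osteoglycin (mimecan), a protein of bone and many soft connective tissues, had 20.6, 20.4 and 19.0 CPM in the MSC-derived libraries and 148, 107 and 119.5 CPM in the endogenous libraries. Endogenous replicate 1 was again the highest, and the log2 fold change was -2.64 (SE 0.14, adjusted p = 2.81e-06).

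*Chad* (gene ID 12643), the class IV member, encodes chondroadherin, a cartilage protein that binds chondrocytes through integrin α2β1. It had 539.7, 566 and 547 CPM in the MSC-derived libraries and 12893, 13406 and 14101 CPM in the endogenous libraries. By TPM it ranked 5 to 7 among all genes in the endogenous cells and 271 to 280 in the MSC-derived cells. The log2 fold change was -4.61 (SE 0.06, adjusted p = 2.08e-08), a 24.4-fold difference. *Chad* overlaps *Acsf2* on the opposite strand, and no strand was stated for the kit. *Acsf2* held 699 to 1229 counts per library where *Chad* held 12502 to 336936, and the counts of both were whole in every library. *Acsf2* was higher in the MSC-derived cells (log2 fold change 0.41, SE 0.12, adjusted p = 0.0168). Whether the overlap affected the counts of either gene was not tested.

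**Figure D2:**
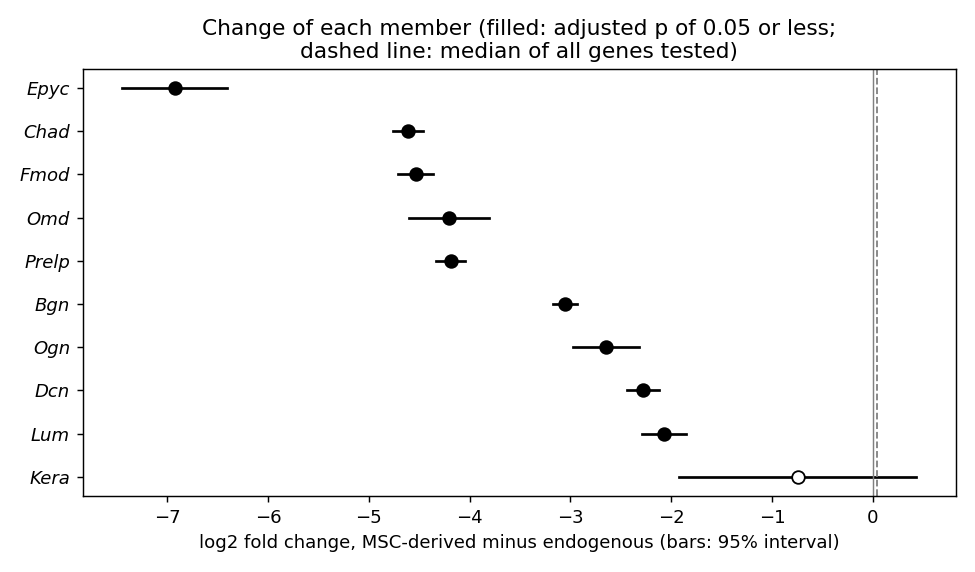
Log2 fold change of each member, MSC-derived minus endogenous, with bars for the 95% interval, filled circles for an adjusted p of 0.05 or less and a dashed line at the median of all genes tested (0.05). *Epyc* lies furthest out at -6.93, 4 members lie between -4.61 and -4.19, 4 lie between -3.06 and -2.07, and the interval of *Kera* crosses 0.

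The members therefore fell by unequal amounts. *Epyc*, *Chad*, *Fmod*, *Omd* and *Prelp* had log2 fold changes under -4, whereas *Bgn*, *Ogn*, *Dcn* and *Lum* stayed above it. No 95% interval of the first 5 overlapped one of the other 4. The split ran through class II (*Lum* against *Fmod*, *Omd* and *Prelp*) and class III (*Ogn* against *Epyc*). It also ran through the gene clusters, as RefSeq places *Dcn*, *Lum*, *Kera* and *Epyc* side by side on chromosome 10 and *Omd* beside *Ogn* on chromosome 13. Along chromosome 10 the log2 fold changes of *Dcn*, *Lum*, *Kera* and *Epyc* were -2.28, -2.07, -0.75 and -6.93, and for *Omd* and *Ogn* they were -4.21 and -2.64. *Prelp* and *Fmod*, neighbours on chromosome 1, had the like values of -4.19 and -4.54. *Omd* and *Ogn* lie within *Cenpp* on the other strand, which held 95.3 to 229 counts per library and was lower as well (log2 fold change -0.91, adjusted p = 0.00793).

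The make-up of the family within a library also differed, by TPM, which compares genes per transcript length. *Chad* made up 44.3% ± 1.81 of the summed TPM of the 10 members in the endogenous libraries and 18.7% ± 0.43 in the MSC-derived libraries (SD, n = 3). *Dcn* made up 20.6% ± 1.56 and 43.9% ± 0.38, so the leading member was *Chad* in one group and *Dcn* in the other. The share of *Lum* was 3.92% ± 0.44 in the endogenous and 9.66% ± 0.21 in the MSC-derived libraries, while *Fmod* went the other way, with 8.44% ± 0.61 and 3.76% ± 0.07. *Bgn* kept the most even share, at 16.2% ± 0.28 and 20.2% ± 0.38. In the endogenous cells the order of mean TPM was *Chad*, *Dcn*, *Bgn*, *Fmod*, *Prelp*, *Lum*, *Omd*, *Epyc*, *Ogn*, *Kera*. In the MSC-derived cells it was *Dcn*, *Bgn*, *Chad*, *Lum*, *Fmod*, *Prelp*, *Omd*, *Ogn*, *Kera*, *Epyc*. Neighbours whose libraries overlapped, and which were not set apart, were *Prelp* with *Lum* and *Epyc* with *Ogn* in the endogenous cells, and *Omd* with *Ogn* and *Kera* with *Epyc* in the MSC-derived cells.

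**Figure D3:**
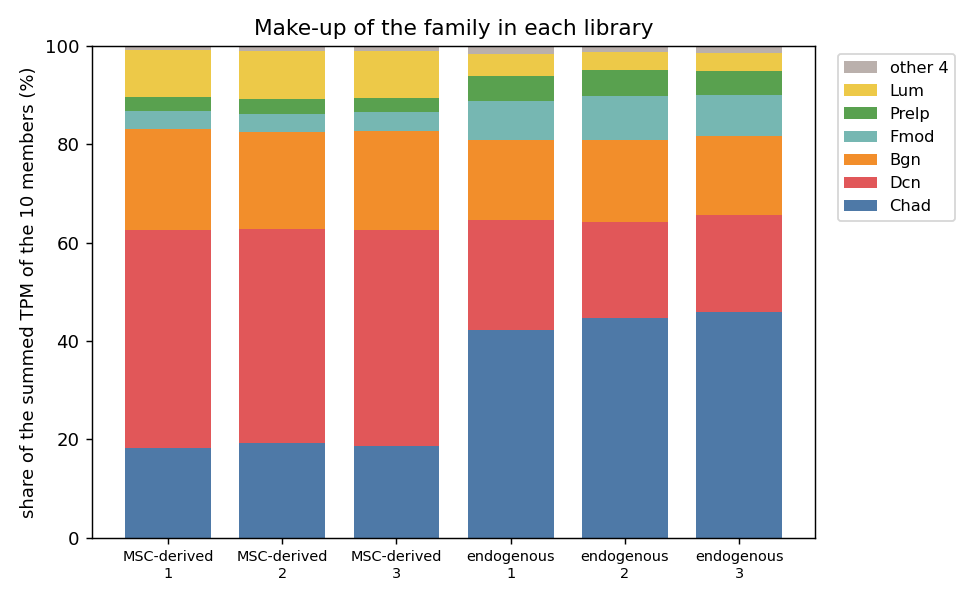
Share of each member in the summed TPM of the 10 members (%), stacked for each library, with *Omd*, *Ogn*, *Epyc* and *Kera* drawn together as the other 4. *Dcn* is the widest band in the 3 MSC-derived libraries (mean 43.9%) and *Chad* in the 3 endogenous libraries (mean 44.3%).

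Ratios between members of a library do not depend on the scaling between libraries. *Lum* over *Fmod* was 2.55, 2.58 and 2.58 in the MSC-derived libraries and 0.562, 0.396 and 0.448 in the endogenous libraries, a 5.54-fold difference that turned the order of this pair. *Ogn* over *Omd* was 1.01, 0.951 and 0.784 against 0.281, 0.296 and 0.291, a 3.14-fold difference. *Dcn* over *Bgn* was 2.16, 2.2 and 2.16 against 1.39, 1.19 and 1.24, a 1.71-fold difference. *Prelp* over *Fmod* moved least, from 0.649, 0.574 and 0.586 to 0.747, 0.754 and 0.796 (1.27-fold). The groups did not overlap in any of the 4 ratios. The exact two-sided permutation p was 0.1 for each, the smallest that 3 libraries against 3 can give, and 0.1 after adjustment over the 4. Levels of 72.4% of all single genes tested did not overlap either, and the share for ratios of other gene pairs was not counted. The gaps alone are thus no result about these pairs.

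Further ratios, to the collagens and the proteoglycan that these proteins accompany, were chosen after the data were seen. *Dcn* over *Col1a1* (type I collagen) was 3.39, 3.31 and 3.23 in the MSC-derived libraries and 0.370, 0.337 and 0.377 in the endogenous libraries, so decorin fell less than the collagen. *Dcn* over *Col3a1* (type III collagen) moved the other way, from 6.89, 6.17 and 6.61 in the endogenous libraries to 4.43, 4.26 and 4.39. *Chad* over *Col2a1* (type II collagen, the main cartilage fibril) was 3.94, 4.12 and 3.70 against 1.17, 1.19 and 1.28. *Chad* over *Acan* (aggrecan, the large proteoglycan of cartilage) was 124, 136 and 120 against 63.4, 66.7 and 66.6. Chondroadherin was thus higher relative to both cartilage genes in the MSC-derived cells, although its own level was 24.4-fold lower. *Epyc* over *Col2a1* was 0.00414, 0.00465 and 0.00747 against 0.00896, 0.00768 and 0.00864, a 1.61-fold lower ratio. All of these had the smallest possible exact permutation p of 0.1, which is no support, as the ratios were chosen after the values were seen.

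The spread between libraries of a group differed from member to member. Endogenous replicate 1, the library with most genes at 0, stood above the mean of replicates 2 and 3 by a factor of 1.98 for *Kera*, 1.37 for *Omd*, 1.31 for *Ogn*, 1.2 for *Lum*, 1.14 for *Dcn* and 1.09 for *Epyc*. For *Bgn* and *Prelp* the factors were 0.997 and 1.01, and for *Chad* and *Fmod* they were 0.937 and 0.899. On this CPM scale replicate 1 was thus above the others for 6 members, and near or below them for the other 4. In TPM it was the highest endogenous library for every member, so this pattern depends on the scaling. *Chad* had 16420 TPM there against 14895 and 15794, and *Fmod* 3049 against 3031 and 2888. Without endogenous replicate 1 the 9 called members were still lower, with log2 fold changes of -4.10 for *Omd*, -2.55 for *Ogn* and -2.27 for *Dcn*. Among the MSC-derived libraries the coefficient of variation was 37.8% for *Epyc*, at 15 to 26 counts, 9.97% for *Kera* and 9.26% for *Omd*, and between 0.892% (*Dcn*) and 4.4% (*Ogn*) for the other 7.

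**Figure D4:**
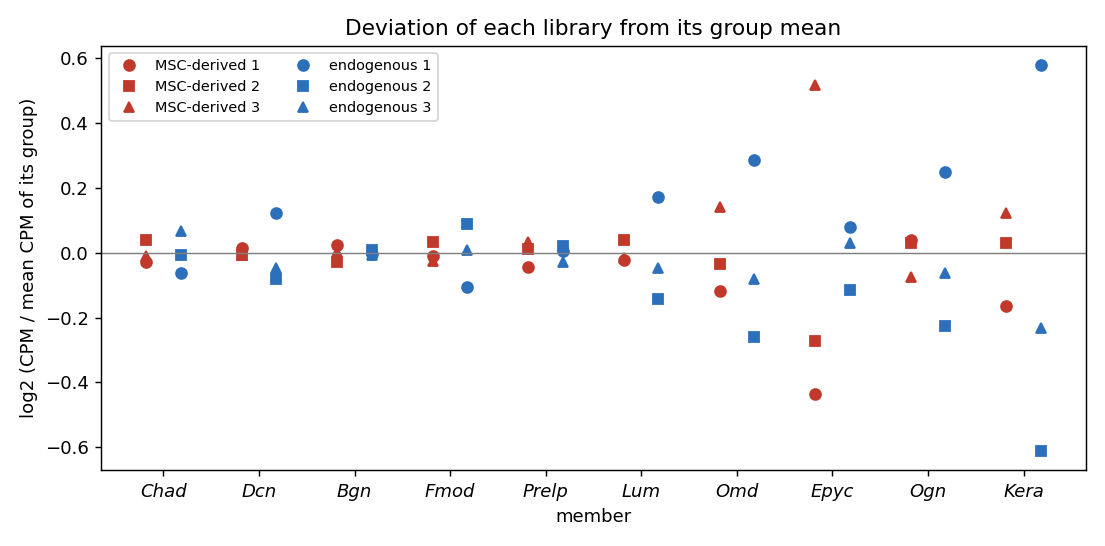
Log2 of the CPM of each library over the mean CPM of its group, for each member, with MSC-derived libraries in red, endogenous libraries in blue and the marker shape giving the replicate. Endogenous replicate 1 is the highest of its group for *Kera*, *Omd*, *Ogn*, *Lum*, *Dcn* and *Epyc* and the lowest for *Fmod* and *Chad*.

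Across the 6 libraries the genes outside the family whose centred log2 CPM lay nearest to the median profile of the members were *Tpm1*, *Sertad4*, *Fibin*, *C1qtnf3* and *Creb3l1*, at Euclidean distances of 0.0924 to 0.209. Their log2 fold changes were -3.59, -3.66, -3.59, -3.57 and -3.63. *Tpm1* encodes a tropomyosin of actin filaments and *Creb3l1* a transcription factor of secretory cells. With 6 libraries in 2 groups, the distance is set largely by the fold change. Of the members, *Bgn* lay nearest to that profile (0.622) and *Kera* (3.80) and *Epyc* (3.33) furthest.

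Relatives outside the 10 genes were mostly lower too. Of 8 other leucine-rich genes of this kind, 6 were lower, 0 were higher (0 also by DESeq2) and 2 did not pass, with a median log2 fold change of -2.82. *Aspn*, which encodes the aspartate-rich class I member asporin, had the smallest change of those called, from 145.6 ± 42.4 to 25.2 ± 0.88 TPM (SD, n = 3; log2 fold change -2.07, SE 0.15, adjusted p = 1.38e-05). *Optc* (opticin) had the largest, at -6.58 (SE 0.94, adjusted p = 6.45e-04), from 28 to 54 counts in the endogenous libraries to at most 1 count in the MSC-derived libraries, so its size is uncertain. *Nyx* (log2 fold change -1.17, adjusted p = 0.157) and *Tsku* (0.59, adjusted p = 0.19) did not pass.

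Collagens, the binding partners, were lower with 1 exception. Of 18 fibrillar and fibril-associated collagen genes, 17 were lower, with a median of -4.89, and several of them are also among the chondrocyte and mesenchymal markers. *Col9a1*, a chain of the type IX collagen on the surface of cartilage fibrils, had the largest decrease, from 495.4 ± 32.2 to 1.25 ± 0.20 TPM (SD, n = 3; log2 fold change -8.25, SE 0.12, adjusted p = 2.61e-08). *Col5a3* had the smallest (-0.97, SE 0.11, adjusted p = 1.75e-04). *Col14a1*, a fibril-associated collagen that binds decorin, was higher, with 14.3 ± 2.84 TPM in the endogenous and 30.2 ± 1.58 TPM in the MSC-derived cells (SD, n = 3; log2 fold change 1.53, SE 0.10, adjusted p = 1.06e-05).

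Enzymes that build the chains moved less. Of 22 genes for the linker and for chondroitin or dermatan sulfate, 16 were lower, 1 was higher and 5 did not pass, with a median of -1.24. The largest decrease was that of the chondroitin synthase *Chsy3* (log2 fold change -4.60, SE 0.34, adjusted p = 1.73e-05) and the smallest that of *Chpf2* (-0.47, SE 0.12, adjusted p = 0.0129). *Dse*, an epimerase that turns chondroitin into dermatan sulfate, was higher, with 35.8 ± 6.05 TPM in the endogenous and 47.1 ± 2.01 TPM in the MSC-derived cells (SD, n = 3; log2 fold change 0.86, SE 0.09, adjusted p = 1.03e-04). The xylosyltransferase *Xylt2* (-0.07, adjusted p = 0.874) and the sulfotransferases *Chst7* (-1.14, adjusted p = 0.0567), *Chst13* (0.13, adjusted p = 0.803) and *Chst14* (0.39, adjusted p = 0.307) were among those that did not pass.

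Of 9 measured genes for keratan sulfate and tyrosine sulfation, 2 were higher, 3 were lower and 4 did not pass, with a median of -0.01. These counts lie near the shares of all genes tested (31.3% higher and 30.3% lower). *B3gnt7*, which extends keratan sulfate chains, was higher, at 11.1 ± 1.33 TPM in the MSC-derived and 0.773 ± 0.015 TPM in the endogenous cells (SD, n = 3; log2 fold change 4.27, SE 0.20, adjusted p = 1.63e-06). *B4galt1*, a galactosyltransferase used on many glycans, was higher by 0.46 on the TMM scale (SE 0.08, adjusted p = 0.00145), a call lost at a threshold of 0.001. In TPM its groups overlapped, with 48.2 ± 1.66 in the MSC-derived and 47.9 ± 1.42 in the endogenous cells (SD, n = 3). The sulfotransferase *Chst5* had the largest decrease (log2 fold change -4.07, SE 0.22, adjusted p = 3.1e-06) and the tyrosine sulfotransferase *Tpst1* the smallest (-0.86, SE 0.17, adjusted p = 0.00292). The genes that did not pass were *B3gnt2* (-0.01, adjusted p = 0.951), *B4galt4* (0.47, adjusted p = 0.0574), *Chst2* (-0.26, adjusted p = 0.24) and *Tpst2* (0.22, adjusted p = 0.233).

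Of 15 proteases and enhancers that process or cleave family members, 11 were lower, 2 were higher and 2 did not pass, with a median of -1.62. The largest decrease was that of *Pcolce2*, an enhancer of procollagen cleavage, from 452.9 ± 69.8 to 16.2 ± 0.16 TPM (SD, n = 3; log2 fold change -4.35, SE 0.09, adjusted p = 6.15e-08). The smallest was that of stromelysin *Mmp3* (-0.86, SE 0.08, adjusted p = 7.78e-05). The genes that were higher were the neutrophil collagenase *Mmp8* (log2 fold change 3.22, SE 0.10, adjusted p = 2.54e-07), which is itself one of the 10 neutrophil markers, and the gelatinase *Mmp9* (2.77, SE 0.08, adjusted p = 1.51e-07). *Tll2* (-0.11, adjusted p = 0.866) and *Gzmb* (2.38, adjusted p = 0.0611) did not pass.

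Of 13 tested receptors through which released members signal, 6 were higher, 4 were lower and 3 did not pass, with a median of 0.08. With 31.3% of all genes tested higher and 30.3% lower, these counts are no result about the receptors as a list. *Tlr4* and *Cd14*, which with *Tlr2* respond to soluble biglycan and decorin, were among those higher. *Tlr4* had 18.3 ± 0.18 TPM in the MSC-derived and 3.40 ± 0.17 TPM in the endogenous cells (SD, n = 3; log2 fold change 2.87, SE 0.10, adjusted p = 4.38e-07), and the log2 fold changes of *Cd14* and *Tlr2* were 2.86 and 2.2 (adjusted p = 4.65e-05 and 2.09e-06). The hyaluronan receptor *Cd44* had the smallest increase of the 6 (log2 fold change 0.86, SE 0.08, adjusted p = 4.4e-05). *Itga10*, an integrin chain for collagen in cartilage, had the largest decrease, from 71.8 ± 2.96 to 2.16 ± 0.35 TPM (SD, n = 3; log2 fold change -4.61, SE 0.13, adjusted p = 1.62e-07). *Egfr*, *Itgb1* and *Igf1r* were lower by less (-1.29, -1.08 and -0.73). *Itga2*, the partner chain of the chondroadherin receptor, was scarcely detected (0 to 61 counts) and did not pass (-1.13, adjusted p = 0.446), and neither did *Met* nor *Lrp1*. The 6 higher receptors rose beside the leukocyte and macrophage markers given above, and *Kdr* (log2 fold change 1.45) is itself one of 7 endothelial markers, of which 5 were higher (28.2 to 31.9 TPM against 10.1 to 15.7 TPM). The part of those cells was not tested.

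Of 11 growth factors that members bind, 8 were lower, 2 were higher and 1 did not pass, with a median of -2.79. The largest decrease was that of *Ccn4* (log2 fold change -4.49, SE 0.14, adjusted p = 2.29e-07) and the smallest that of *Pdgfa* (-1.34, SE 0.15, adjusted p = 1.89e-04). *Tgfb1*, the classical ligand of decorin, was higher, with 269.5 ± 25.4 TPM in the endogenous and 357.5 ± 1.5 TPM in the MSC-derived cells (SD, n = 3; log2 fold change 0.85, SE 0.06, adjusted p = 1.22e-05). *Pdgfb* was higher by 5.77 (SE 0.68, adjusted p = 2.16e-04), with 0 to 34 counts in the endogenous libraries, so the size is uncertain. *Mstn* did not pass (0.14, adjusted p = 0.923).

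**Figure D5:**
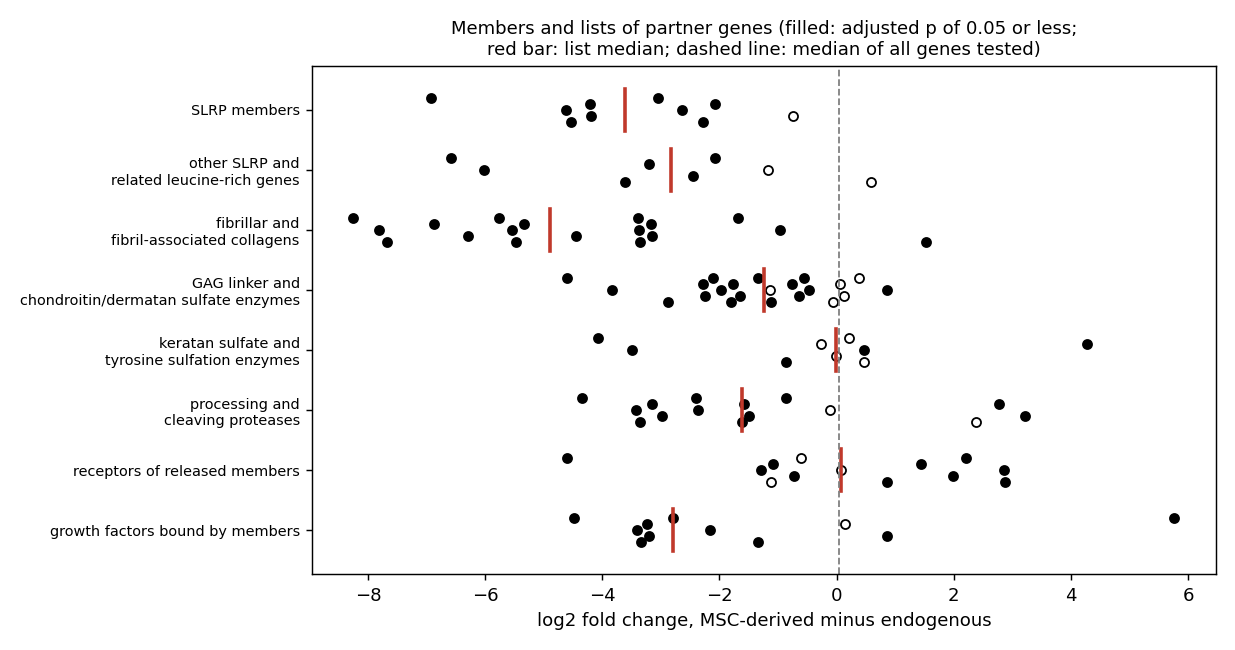
Log2 fold change, MSC-derived minus endogenous, of each tested gene of the family and of the lists around it, with filled circles for an adjusted p of 0.05 or less, a red bar at the list median and a dashed line at the median of all genes tested (0.05). The medians run from -4.89 for the collagens, through -3.62 for the family, to -0.01 for the keratan sulfate and tyrosine sulfation enzymes and 0.08 for the receptors.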

How the data were processed

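RNA of 6 libraries was sequenced, 3 per group. The study's methods name 3 mice for either sample and do not say whether each library came from a separate mouse. Rank correlations were 0.995 for each MSC-derived pair of libraries and 0.951, 0.953 and 0.994 for the endogenous pairs. The common coefficient of variation estimated by edgeR was 6.77% in the MSC-derived and 35.1% in the endogenous group. SD, SE and p-values thus measure spread between libraries, which need not be that between mice. The authors' pipeline was SOAPnuke for read filtering, HISAT2 and Bowtie2 for alignment to the genome and to a gene set, and RSEM for gene quantification; per the labels, the submitters' processing notes name mm9, Bowtie2 2.2.5 and RSEM 1.2.12. The authors deposited expected counts without normalization, FPKM and TPM, which divide by transcript length and library size, and a further rescaled signal per gene that was not used for any result. Group assignments came from sample titles, all columns of individual libraries were mapped, and the 8 columns with group means were left aside. No strand was stated for the kit.

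Expected counts were rounded, which changed 20.6% of values, and fitted in edgeR 4.0.16 under R 4.3.3 (TMM, filterByExpr, glmQLFit, glmQLFTest, no covariates), with Benjamini-Hochberg adjustment over 14289 genes and a threshold of 0.05. The script was tested on simulated data. A first limit on the share of large changes recovered was not met, which was put down to low-count genes with wide spread. The limits kept were on sign, error and false calls. SE is the log2 fold change divided by the square root of F. Alternatives were DESeq2 1.42.0, limma 3.58.1, other scalings and filters, a replicate block and each library left out. Same-numbered libraries of the 2 groups had correlations of 0.0129, 0.00221 and 0.0178 in their deviations from the group means. No pairing by number was thus seen. These values cannot exclude a shared batch, as the MSC-derived libraries lay close together and endogenous replicate 1 stood apart. From each list around the family, the largest and smallest called changes, the genes called against the majority and up to 4 uncalled genes were named, with *Cd14*, *Tlr2*, *Egfr*, *Itgb1*, *Igf1r*, *Kdr*, *Acsf2* and *Cenpp* named after their values were seen. The members and lists were chosen with earlier results of these data known. Promoter sequences and gene order are from RefSeq (GRCm38.p6), another build than mm9. Permutation tests used SciPy 1.17.1. Counting intervals do not cover the loss of molecules in amplification.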

Additional observations from a re-analysis of the deposited data

How the results depend on the processing

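Under 19 alternatives (DESeq2, other scalings and filters, a robust dispersion, limma on FPKM or TPM, a stricter threshold, a replicate block and each library left out), the 9 called members kept direction and call in all 171 values, and *Kera* passed under none (adjusted p = 0.0762 to 0.445, log2 fold change -0.999 to -0.25). Log2 fold changes ran from -7.26 to -5.31 for *Epyc*, the least negative under limma on log2(FPKM + 1), from -5.05 to -4.49 for *Chad*, from -2.72 to -2.16 for *Dcn* and from -2.50 to -1.94 for *Lum*. With the replicate number as a block, 9 members were lower and 0 higher, and no list count changed, while over all genes 4103 were higher and 3920 lower. The labels give no pairing behind the shared numbers, and no correlation between same-numbered libraries reached 0.1. The keratan sulfate and tyrosine sulfation list had 1 higher and 5 lower genes under limma on log2(TPM + 1) without a filter, and 1 higher and 2 lower genes at a threshold of 0.001. At that threshold the list for the linker and chondroitin or dermatan sulfate had 12 lower genes in place of 16. The proteases had 10 lower in place of 11, and the receptors 5 higher in place of 6. The median of all genes tested moved from 0.05 to 0.16 with library totals alone, to 0.11 and 0.17 with limma on log2(FPKM + 1) and log2(FPKM + 0.1), and to -0.15 with limma on log2(TPM + 1), where 3161 genes were higher and 5859 lower, against 5042 and 3970 with library totals and 4468 and 4333 in the main test. Leaving out a library gave 3672 to 5563 higher and 3761 to 5686 lower genes, the most without endogenous replicate 1. The differences in the 4 member ratios kept their direction with FPKM or counts in place of TPM. The log2 difference of *Ogn* over *Omd* moved most with counts, from 1.65 to 1.56, more than the endogenous SD of 0.04 and less than the MSC-derived SD of 0.19.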

Other observations

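Of 6 tendon and ligament markers 4 were lower and 2 did not pass, where 30.3% of all genes tested were lower and 31.3% higher. *Tnmd*, which encodes tenomodulin, had a log2 fold change of -0.21 (edgeR adjusted p = 0.449), while the tendon transcription factors *Scx* and *Mkx* had -1.47 and -3.35 (edgeR adjusted p = 9.9e-04 and 4.88e-05). Of 7 tested adipose stromal markers 3 were higher (*Pi16*, *Cd55* and *Anxa3*, with log2 fold changes of 1.69, 1.05 and 0.97), *F3* was lower (-4.96) and 3 did not pass. With 31.3% of all genes tested higher, this count is no result about the list. *Pi16* marks a fibroblast progenitor of many tissues. Of 6 superficial zone and synovial lining markers 2 were higher, near the share of all genes tested, and 4 lower. *Prg4*, which encodes the joint lubricant lubricin, was lower by 0.51 on the log2 TMM scale (edgeR adjusted p = 4.33e-04). On that scale *Prg4* lay nearer to the endogenous level than any of the 9 called members. In TPM its difference was larger, with 2000 ± 44.2 in the MSC-derived and 3985 ± 753 in the endogenous cells (SD, n = 3). The 6 skeletal muscle markers summed to 7.39 to 9.11 TPM in the MSC-derived and 7.02 to 13.2 TPM in the endogenous libraries. *Tnmd*, *Scx*, *Mkx*, *Pi16*, *Cd55*, *Anxa3*, *F3* and *Prg4* were named after their values were seen.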
